A study of Sporobolus alterniflorus and Setaria viridis with 12 samples.

Results

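Of 15218 gene IDs measured in leaves of 2 grasses, 25 had higher levels under salt in the cordgrass Spartina alterniflora while their mean level in Setaria viridis stayed near its control. Levels are FPKM, fragments per gene corrected for its length and for the size of the library. Genes were chosen by their levels under salt and without it in both species. A gene was taken when its lowest S. alterniflora salt library was at least 2 times its highest S. alterniflora control library, with 1 FPKM added to both, which 1.85% of the 11330 genes tested in that species met. Its S. viridis control mean also had to be 1 FPKM or more, and its S. viridis salt mean 0.67 to 1.5 times that control mean, again with 1 added. Every salt effect below is therefore a description of values that chose the genes and not a test.

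Mature leaves were sampled from control and NaCl-treated plants of each species, which gave 4 groups of 3 libraries and 12 libraries in all. The S. alterniflora plants were grown from seed collected in the Shanghai area, were 2 months old when moved to hydroponic culture, and are listed in the labels as Sporobolus alterniflorus. The S. viridis plants were sown directly on soil and were also moved to hydroponic culture, at the same temperature and photoperiod. The protocol gives a NaCl dose of 250 mM to S. viridis and of 50 mM to cordgrass, but the columns of the table carry 50 with the prefix of S. viridis and 250 with that of S. alterniflora. Which dose each species received is therefore uncertain, and an exchange of the species prefixes cannot be told apart from an exchange of the doses. With exchanged prefixes, all values given here would change species. Species are called by the column prefix, and libraries of a group A, B and C by the column letter. No line or seed source of S. viridis is stated in the labels. Whether the libraries of a group stem from different plants is not stated either, so p-values measure the spread between libraries, which may be technical.

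Total FPKM per library ranged from 510410 to 915944, and between 10472 and 11276 genes reached 1 FPKM. Read totals cannot be had from FPKM, so depth is unknown. Both species were quantified on the same Setaria IDs, and no source used here says how cordgrass reads were placed on them. All 25 genes passed the filter of the tests, a mean of 1 FPKM over the libraries compared.

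Spartina alterniflora is a grass of tidal salt marshes that secretes salt through glands on its leaves, and Setaria viridis is a fast-growing C4 grass much used in the laboratory. In grass leaves, high salt outside the root lowers water uptake and loads cells with sodium and chloride. Leaf cells are known to answer through genes for ion transport, compatible solutes, protective proteins, detoxification of reactive oxygen and abscisic acid signalling. The files pair 0 of the IDs with a gene name, so which of these roles the 25 genes have is not stated. For the same reason the leaf label could not be checked against marker genes.

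The gene with the highest salt effect was Sevir.4G111600. In S. alterniflora controls it was at 0.62, 20.54 and 1.7 FPKM in libraries A, B and C, and under salt at 475.34, 2334.38 and 1863.7 FPKM. The groups were far apart, although control B was well above the other controls and salt A well below the other salt libraries. The effect was 8.13 ± 1 (log2 difference of FPKM + 1 ± SE, limma, n = 3 per group), which ranked 1 among all 11330 genes tested in the species. In S. viridis the same gene had control levels of 105.23, 110.04 and 118.28 FPKM and salt levels of 63.94, 44.87 and 134.33 FPKM. There salt A and B were below every control and salt C above every control, with an effect of -0.60 ± 0.39. Single libraries moved this value: it was -0.26 when salt library B was left out. When C was left out it was -1.04 ± 0.22, which limma called lower (adjusted p = 0.00789). Without salt, Sevir.4G111600 was thus far more abundant in S. viridis than in S. alterniflora, and under salt the order was the opposite.

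Sevir.9G252600 had the next highest effect, 3.52 ± 0.31. Its S. alterniflora controls lay close together at 8.36, 8.81 and 9.18 FPKM, and its salt libraries were at 77.47, 157.94 and 111.99 FPKM. In S. viridis it had control levels of 51.38, 32.24 and 27.67 FPKM and salt levels of 19.07, 58.36 and 41.15 FPKM, so that salt libraries lay below, above and within the control range. The S. viridis effect was 0.00 ± 0.43.

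Across all 25 genes the S. alterniflora effect was 1.51 to 8.13 (log2), with a median of 2.10 against 0.06 over all genes tested there. The effect was 3 or more in 5 genes, 2 to 3 in 8 genes and under 2 in 12 genes. Besides both genes above, those at 3 or more were Sevir.3G275700, Sevir.3G220600 and Sevir.3G147400, named after their values were seen. Sevir.3G275700 had control levels of 0.31, 2 and a listed 0 FPKM and salt levels of 24.55, 6.76 and 21.98 FPKM. Sevir.3G220600 had control levels of 12.69, 8.75 and 6.16 FPKM and salt levels of 96, 166.41 and 62.55 FPKM. Sevir.3G147400 had control levels of 0.11, 0.92 and 1.34 FPKM and salt levels of 19.48, 9.37 and 18.44 FPKM. In each of these 3 genes the groups were apart, and the highest salt library was A or B.

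**Figure D1:**
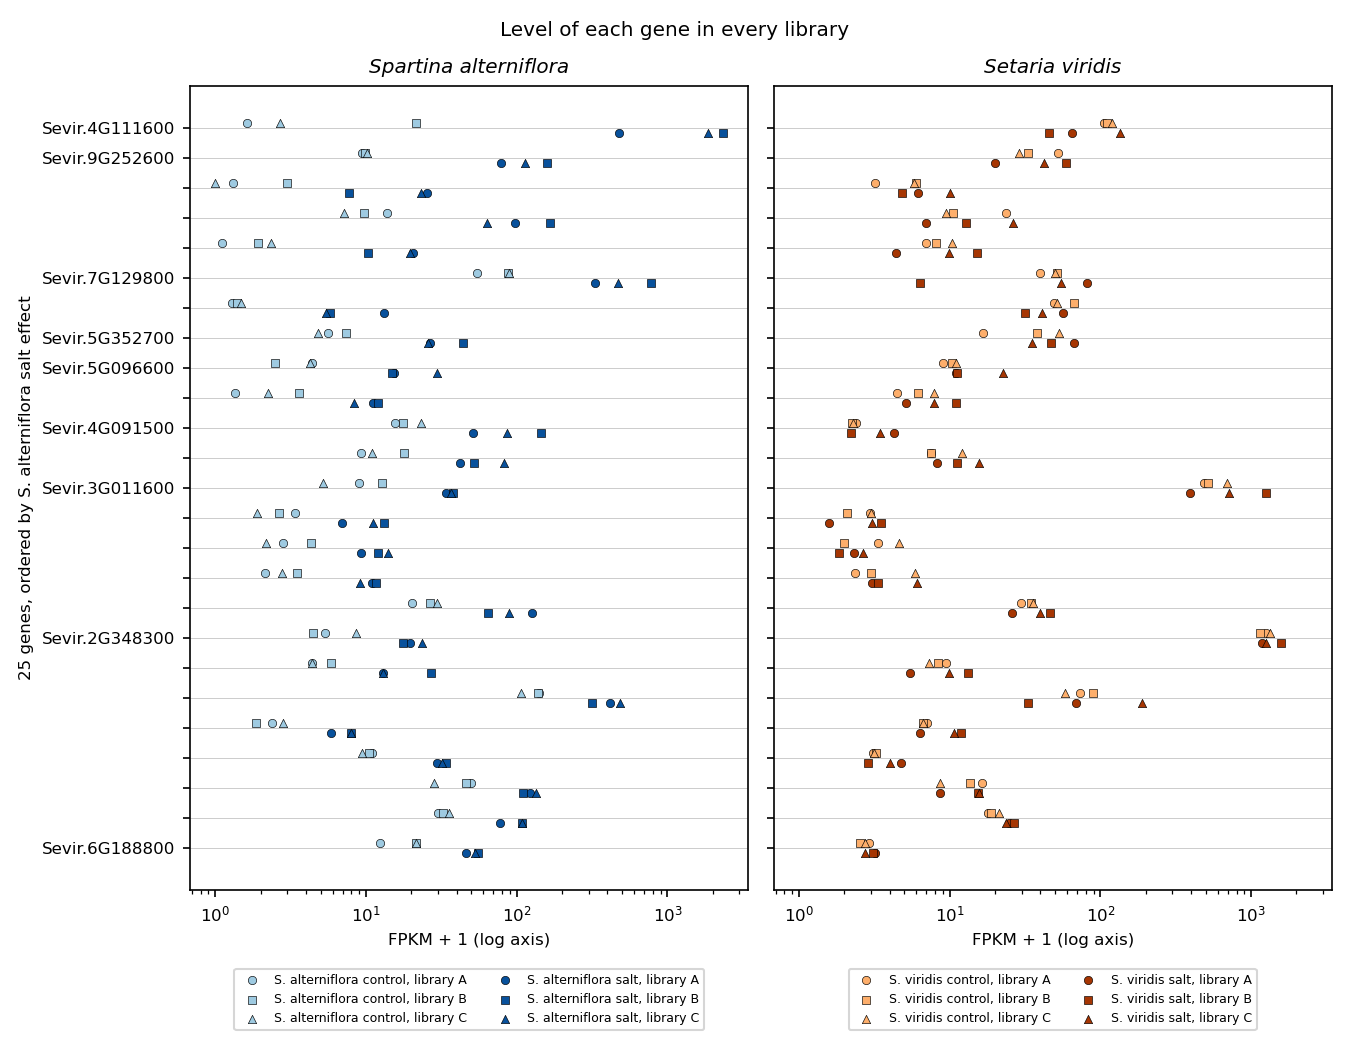
Level of each of the 25 genes in every library, as FPKM + 1 on a log axis, with S. alterniflora on the left and S. viridis on the right. Light points are controls, dark points are salt, and the marker shape gives the library letter. On the left the dark points lie to the right of the light points in every row, as the choice of genes required, while on the right the ranges overlap in 24 of 25 rows. They overlap in 75.2% of the 4425 genes that meet the S. viridis limits.

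In S. alterniflora controls 17 of the 25 genes had a mean under 10 FPKM, 7 a mean of 10 to 100 FPKM and 1 a mean of 100 FPKM or more. Under salt the numbers were 5, 14 and 6. The group mean ranged from 0.387 to 126.9 FPKM in controls, with a median of 7.62 FPKM, and from 6.28 to 1558 FPKM under salt, with a median of 31 FPKM. The control median was near that of all 12529 genes with a mean of 1 FPKM, 6.03 FPKM, and of the 4425 genes that meet the S. viridis limits, 6.86 FPKM.

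Salt library B was the highest of the 3 S. alterniflora salt libraries in 14 of 25 genes (56%), against 34.6% of 12529 genes with a mean of 1 FPKM over all libraries. Library A was the lowest in 13 of 25 (52%), against 35.7%. Which salt library was highest was not part of the rule. Differences between libraries A, B and C of the salt group thus ran through many of the genes, and no label says what sets these libraries apart.

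The limma test over the S. alterniflora libraries (moderated test on log2 of FPKM + 1, two-sided, Benjamini-Hochberg adjusted p under 0.05) called 23 of the 25 genes higher, against 1.43% of all 11330 genes. The rule used this contrast, so the count carries no support. The other 2, Sevir.6G188800 and Sevir.7G140900, had adjusted p-values of 0.0578 and 0.0621. Each single library bore on the count of 23. It was 8 without salt library A, 11 without B and 2 without C. It was 5 without control library B, 2 without C and 0 without A, where the smallest adjusted p of the 25 genes was 0.0699. Calls of higher over all genes fell as well, from 162 to 103, 133 and 31 without salt library A, B and C. Without control library A, B and C they were 0, 59 and 41.

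A reading in libraries that the choice did not use was made by leaving out 1 salt and 1 control library of S. alterniflora, choosing genes by the same rule from the rest, and then comparing the pair left out. The 9 possible pairs gave 51 to 102 chosen genes, more than 25 because fewer libraries had to meet the limit. In the pair left out, 37.3% to 64.7% of the chosen genes reached 2-fold (salt over control, 1 FPKM added), against 9.2% to 21.3% of all genes at a mean of 1 FPKM in the species. The chosen genes were ahead of all genes for each of the 9 pairs, in part by construction. Leaving out libraries only loosens the rule, so the 25 genes were among those chosen for each pair. By the full rule each of the 25 also reaches 2-fold in any pair. They are thus a fixed part of the 33 to 43 chosen genes at 2-fold, and for them the reading shows nothing. The lowest shares, 37.3% and 37.5%, came with salt library A left out together with control B or C. Among all genes that met the S. alterniflora limit and the S. viridis control floor, whatever S. viridis did under salt, the share was 40.5% to 74.3%. Those that meet the full S. alterniflora limit reach 2-fold in any pair as well. The pairs also share libraries, so these shares are a description with no test.

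**Figure D2:**
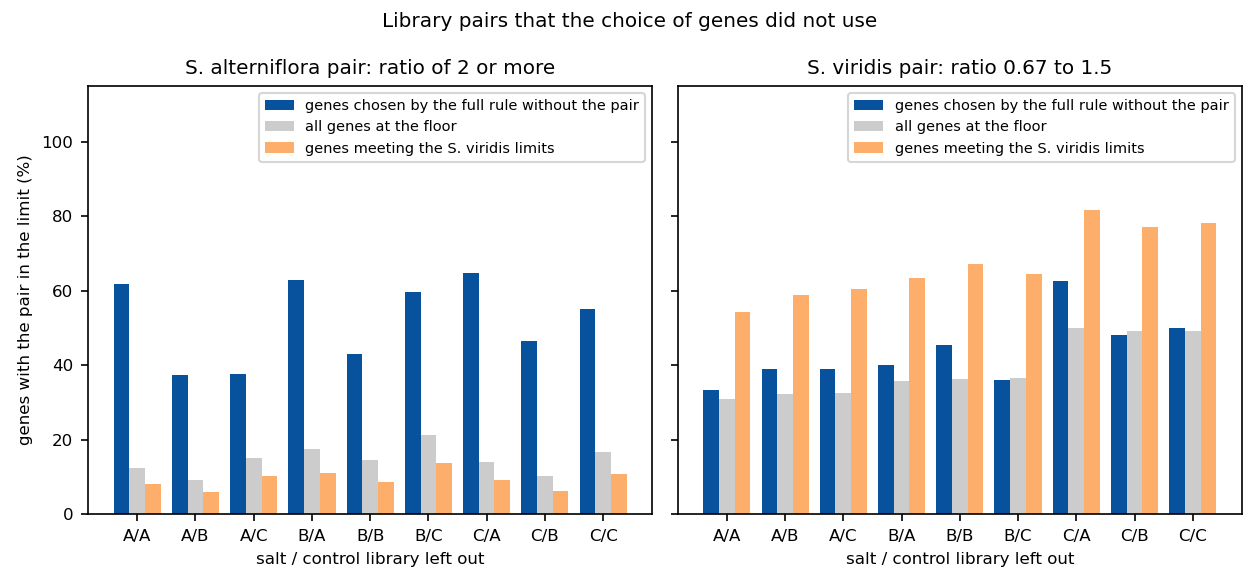
Share of genes (%) whose left-out library pair fell in the limit, for genes chosen by the full rule without that pair (blue), for all genes at the floor of 1 FPKM (grey) and for genes meeting the S. viridis limits (orange), for the 9 pairs of each species. On the left the limit is a salt over control ratio of 2 or more in S. alterniflora. Blue is there 37.3% to 64.7% against 9.2% to 21.3% in grey and 5.8% to 13.6% in orange. The 25 genes are in each blue set on the left and reach 2-fold in any pair by the rule. On the right the limit is a ratio of 0.67 to 1.5 in S. viridis, and blue is 33.3% to 62.5% against 30.9% to 50% in grey and 54.2% to 81.6% in orange.

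In S. viridis the 25 genes kept a mean near control by the rule, but their single salt libraries spread widely around it. All 3 salt libraries lay within 0.67 to 1.5 times the control mean in only 4 of 25 genes (16%). Of the 4425 genes in the table that meet the same S. viridis limits, 45.6% did so. At least 1 salt library was 2-fold or more from the control mean in 7 of 25 genes (28%), against 11.8% of those 4425 genes. The median SD between S. viridis control libraries was 0.28 (log2 of FPKM + 1) for the 25 genes and 0.13 for the 4425. Between S. viridis salt libraries it was 0.53 and 0.32. Levels of the 25 genes thus varied more from library to library than those of other genes with the same S. viridis limits, also without salt, in a description with no test.

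Sevir.7G129800 had the lowest S. viridis effect, -0.61 ± 0.87, and the widest scatter of the named genes. Its S. viridis controls were at 38.48, 50.57 and 48.65 FPKM, and its salt libraries at 80.35, 5.36 and 54 FPKM. Library B alone was below the controls and libraries A and C were above them. The sign of the effect rested on library B: it was 0.52 without that library, -1.32 without salt library A and -1.03 without salt library C, and the ratio of the means was 1.014. In S. alterniflora its controls were at 53.45, 86.95 and 87.87 FPKM and its salt libraries at 330.91, 772.09 and 468.87 FPKM, with library B the highest.

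Sevir.5G352700 and Sevir.5G096600 had the highest S. viridis effects, 0.58 ± 0.45 and 0.48 ± 0.31. Sevir.5G352700 had S. viridis control levels of 15.58, 36.86 and 52.03 FPKM and salt levels of 65.57, 46.32 and 34.36 FPKM, with overlapping ranges. Sevir.5G096600 had control levels of 8.04, 9.37 and 9.95 FPKM and salt levels of 9.94, 10.24 and 21.58 FPKM, where library C alone was well above the controls. In S. alterniflora Sevir.5G352700 had control levels of 4.55, 6.36 and 3.81 FPKM and salt levels of 25.48, 42.75 and 24.63 FPKM. Sevir.5G096600 was there at 3.4, 1.49 and 3.25 FPKM in controls and at 14.43, 13.79 and 28.54 FPKM under salt. Without S. viridis salt library C, the S. viridis effect of Sevir.5G096600 was 0.14. That of Sevir.5G352700 was 0.35 without salt library A, 0.10 without control library A and 0.94 without control library C.

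None of the 25 genes was called for S. viridis salt by limma, where 52.5% of 11266 tested genes were called, and none had an unadjusted p under 0.05. Leaving out a salt library gave 1 call each time, while over all genes 5140, 5425 and 7033 were called without A, B and C. The call was Sevir.9G244200, higher by 0.73 (log2), without library A, Sevir.4G091500, higher by 0.74, without B, and Sevir.4G111600, lower at -1.04, without C. The rule bounded this contrast, so nothing is read from the count, and a p above the threshold does not show that a gene did not respond. One gene, named after its values were seen, had ranges that did not overlap. Sevir.7G048200 had S. viridis control levels of 16.91, 17.79 and 20.3 FPKM and salt levels of 23.65, 25.72 and 22.52 FPKM. Every S. viridis salt library lay above every control in 30.8% of all genes tested and below every control in 34.6%. Among the 4425 genes that meet the S. viridis limits, this was so in 512 and 586 genes, and the ranges overlapped in 75.2%. The S. viridis effect was above 0 in 19 of 25 genes, with a median of 0.12 (log2) against -0.12 over all genes tested. With upper quartile scaling, which moved the median of all genes to -0.21, it was above 0 in 14 of 25. Salt library C was above every S. viridis control in 16 of 25 genes and below every control in 1, while library A was above in 7 and below in 10. Over the 4425 genes, library C was above every control in 49.6% and below in 21.1%, and library A above in 21.9% and below in 58.2%, so the libraries differed in the same direction there.

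The same reading of left-out pairs was made for the S. viridis limits. The rule applied without 1 salt and 1 control library of S. viridis chose 22 to 27 genes. In the pair left out, 33.3% to 62.5% of them lay within 0.67 to 1.5, against 30.9% to 50% of all 10799 genes with an S. viridis control mean of 1 FPKM or more. The share was above that of all those genes for 7 pairs and below it for 2. Genes that meet the S. viridis limits alone, whatever cordgrass did, numbered 3693 to 4741 when chosen in the same way, and 54.2% to 81.6% of them lay within 0.67 to 1.5 in the pair left out. The genes chosen by the full rule were under that share for each of the 9 pairs. Among all genes that met the S. alterniflora limit and the S. viridis control floor, 130 to 132 genes that include the chosen ones, the share was 15.9% to 24.6%. The chosen genes were above it for each pair. The rest of those genes had an S. viridis ratio outside 0.67 to 1.5 in the libraries used, so this order follows in part from the choice. The median ratio of the chosen genes in the pair was 0.882 to 1.401, against 0.724 to 1.034 over all those genes. The pairs share libraries, and these shares too carry no test.

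Of 131 genes that met the S. alterniflora limit and the S. viridis control floor, these 25 were 19.1%. In another 82 (62.6%) the S. viridis ratio was above 1.5 and in 24 (18.3%) below 0.67. A further 85 genes met the S. alterniflora limit with an S. viridis control mean under 1 FPKM. The median S. alterniflora effect was 2.10 in the 25 genes, 2.39 in the 82, 2.24 in the 24 and 2.60 in the 85 (log2). Sevir.4G111600 stood outside all of these, since the highest effect among the other genes at the floor that are not among the 25 was 4.18. Sevir.9G252600 ranked 11 of the 131. Apart from the leading gene, the cordgrass effects of the 25 genes lay within the range of the others at the floor.

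**Figure D3:**
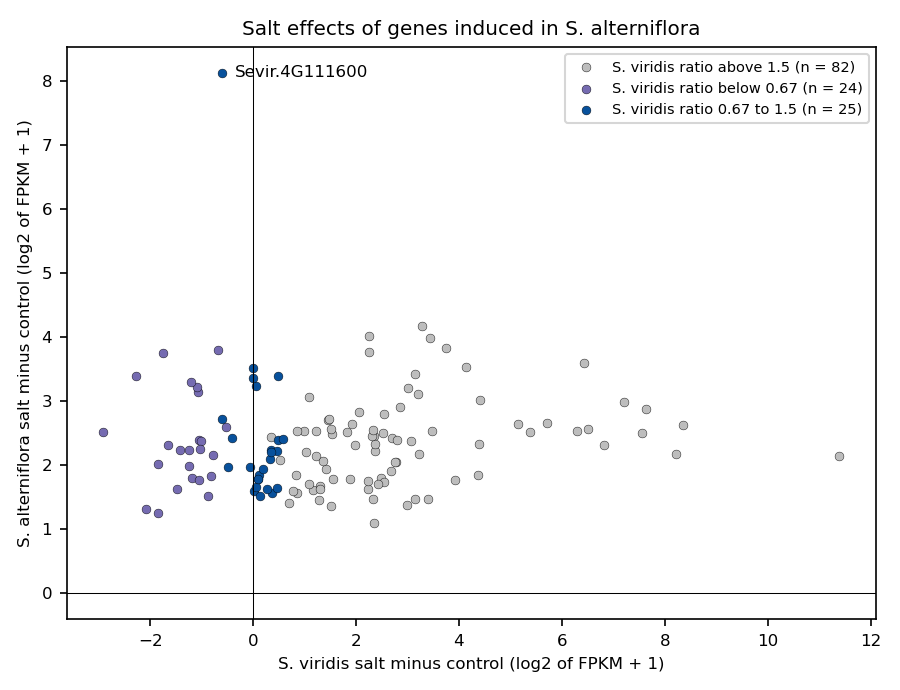
Salt effect in S. viridis (horizontal) against that in S. alterniflora (vertical), both as salt minus control in log2 of FPKM + 1, for the 131 genes at the S. viridis control floor. Blue points are the 25 genes with an S. viridis ratio of 0.67 to 1.5, grey the 82 above it and purple the 24 below it. Sevir.4G111600, at 8.13 on the vertical axis, lies above all others, and the other blue points share the vertical range of the grey and purple ones.

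Limits of the rule cut through a continuous range. With the S. viridis limits met, the lowest salt over highest control ratios just inside the limit of 2 were 2.024 and 2.074 and those just outside were 1.958 and 1.938. The S. viridis control means nearest to 1 FPKM were 1.303 inside and 0.88 outside. The S. viridis ratios nearest to 0.67 were 0.68 inside and 0.608 outside, and those nearest to 1.5 were 1.474 inside and 1.513 outside.

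The difference of the salt effects, S. viridis minus S. alterniflora, was negative in all 25 genes, and limma called 24 of them lower, against 13.4% of 12529 genes. Both effects entered the rule, so this count too describes the choice. The lowest differences were -8.73 ± 1.19 (log2 ± SE) for Sevir.4G111600 and -3.52 ± 0.56 for Sevir.9G252600, and the median was -1.83 against -0.14 over all genes tested. The gene not called, Sevir.5G310100, had a difference of -1.59 ± 0.69. In S. viridis it had control levels of 72.29, 88.07 and 57.35 FPKM and salt levels of 67.56, 32.14 and 187.76 FPKM, so that its salt libraries spread on both sides of the controls. Leaving out control library B or C of S. viridis, or control library A of S. alterniflora, lowered the count to 15. Over all genes the number called lower fell from 1683 to 1044, 1056 and 1257 in the same order.

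Without salt, the 25 genes took every place relative to S. viridis. All S. alterniflora controls were below all S. viridis controls in 13 genes, against 41.9% of the 12134 genes tested between controls, and above in 7, against 35.3%. The ranges overlapped in 5. Under salt, all S. alterniflora libraries were above all S. viridis libraries in 15 genes, against 32.9% of 12445 genes tested, below in 3, against 34.9%, and overlapped in 7. The rule favoured low cordgrass controls and high cordgrass salt libraries and so bears on both counts. Species, dose, culture and the assignment of cordgrass reads to Setaria IDs differ together in these comparisons and cannot be told apart.

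The genes fell into 5 combinations. In 7 genes the cordgrass level was above that of S. viridis both without and with salt, as in 24.38% of all 12529 genes with a mean of 1 FPKM, so that 7 of 25 is near the share over all genes. In 5, against 6.66% of all genes, it overlapped without salt and was above with salt. In 7, against 12.34%, it was below without salt and overlapped with salt. In 3, against 1.64%, it was below without salt and above with salt, namely Sevir.4G111600, Sevir.9G252600 and, named after its values were seen, Sevir.6G104600. The latter was, in S. alterniflora controls, at 19.26, 25.48 and 28.45 FPKM against 28.75, 33.72 and 34.84 FPKM in S. viridis controls. Under salt it was at 125.38, 63.5 and 87.82 FPKM against 24.97, 45.56 and 38.5 FPKM. In the last 3 genes, against 27.15% of all genes, the cordgrass level was below in both states. Moves toward a higher cordgrass level under salt follow from the rule, so nothing is read from their shares.

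Those 3 genes were Sevir.2G348300, Sevir.3G011600 and, named after its values were seen, Sevir.5G379400. Sevir.2G348300 was among the abundant genes of S. viridis leaves, at 1254.95, 1142.47 and 1335.75 FPKM in controls and at 1177.63, 1571.27 and 1262.68 FPKM under salt. In S. alterniflora it had control levels of 4.31, 3.42 and 7.52 FPKM and salt levels of 18.71, 16.67 and 22.33 FPKM. The level was higher in S. viridis by 7.73 ± 0.26 without salt and by 6.05 ± 0.30 with salt (log2 difference ± SE), the highest differences among the 25 genes. Its salt level in cordgrass, although at least 2 times the control level, thus stayed a small part of that in S. viridis.

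Sevir.3G011600 showed the same order, at 486.07, 518.89 and 695.81 FPKM in S. viridis controls and 391.49, 1248.79 and 711.33 FPKM under salt. In S. alterniflora it had control levels of 8.02, 11.74 and 4.19 FPKM and salt levels of 33.01, 36.81 and 35.59 FPKM. The difference between species was 6.06 ± 0.34 without salt and 4.29 ± 0.44 with salt. Sevir.5G379400 had S. viridis control levels of 48.55, 66.29 and 50.65 FPKM and salt levels of 55.37, 30.8 and 40.22 FPKM, against 0.28, 0.39 and 0.49 FPKM in S. alterniflora controls and 12.11, 4.74 and 4.45 FPKM under salt. Its cordgrass controls were all under 1 FPKM, where the added 1 FPKM makes the log2 effect understate the change.

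At the other end, Sevir.4G091500 and Sevir.6G188800 were the genes most in favour of cordgrass without salt. Sevir.4G091500 had S. alterniflora control levels of 14.57, 16.48 and 22.13 FPKM and salt levels of 50.3, 144.68 and 84.66 FPKM. In S. viridis it had control levels of 1.4, 1.23 and 1.28 FPKM and salt levels of 3.3, 1.2 and 2.46 FPKM, close to the floor of the rule. Subtracting S. alterniflora from S. viridis gave -3.00 ± 0.19 without salt and -4.75 ± 0.45 with salt. Sevir.6G188800 had S. alterniflora control levels of 11.4, 20.56 and 20.47 FPKM and salt levels of 44.71, 54.51 and 51.67 FPKM, against 1.9, 1.52 and 1.76 FPKM in S. viridis controls and 2.19, 2.09 and 1.72 FPKM under salt. Its difference was -2.72 ± 0.25 without salt. At such levels an S. viridis ratio within the limits on the scale with 1 FPKM added leaves room for larger ratios of the FPKM values themselves. Sevir.4G091500 had a ratio of 1.44 on that scale, with S. viridis means of 1.303 FPKM in controls and 2.32 FPKM under salt.

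**Figure D4:**
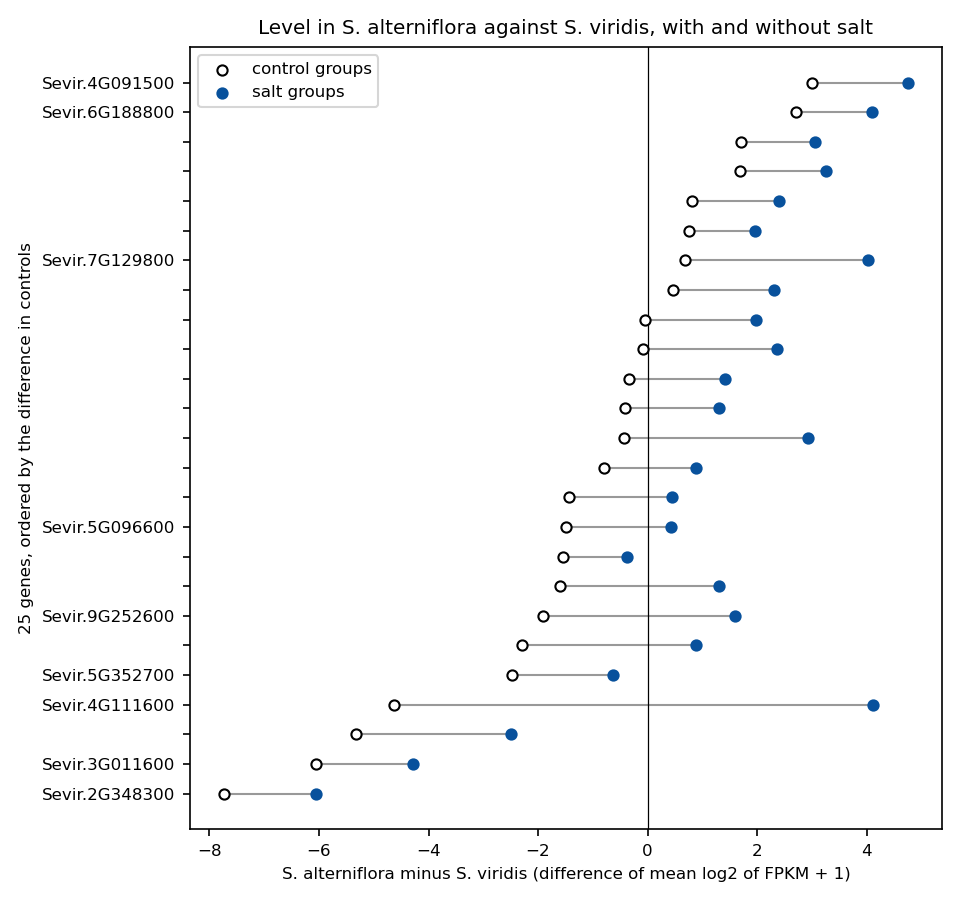
Difference between S. alterniflora and S. viridis in mean log2 of FPKM + 1 for each of the 25 genes, in the control groups (open points) and in the salt groups (filled points), joined by a line. Points left of 0 are lower in S. alterniflora. Each filled point lies to the right of its open point, as the choice of genes required, and the lines start between -7.73 and 3.00.

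By limma, 12 of the 25 genes were called higher in S. viridis controls than in S. alterniflora controls and 7 lower, against 39.5% and 32.8% of genes tested. Under salt 3 were called higher in S. viridis and 15 lower, against 31.9% and 29.9%. The median difference moved from 0.43 to -1.60 (log2, S. viridis minus S. alterniflora), and over all genes tested it was 0.16 and 0.02. Upper quartile scaling moved the medians of all genes to -0.17 and -0.29 and gave 12 higher and 8 lower without salt and 3 higher and 17 lower with salt. Calls over all genes moved the same way. Without salt they went from 4792 higher and 3976 lower to 4137 higher and 4877 lower. With salt they went from 3968 higher and 3717 lower to 3442 higher and 4447 lower.

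Together the 25 genes held 0.0428% to 0.0703% of total FPKM in S. alterniflora controls and 0.28% to 0.636% under salt. In S. viridis they held 0.354% to 0.4% in controls and 0.399% to 0.616% under salt, most of it from Sevir.2G348300 and Sevir.3G011600. These are shares of totals that were lower in S. viridis salt libraries (510410 to 542488 FPKM) than in its controls (615049 to 631719 FPKM). The 25 genes summed to 2174 to 2527 FPKM in S. viridis controls and to 2036, 3218 and 2662 FPKM in salt libraries A, B and C. Sevir.4G111600 alone held 0.0641%, 0.329% and 0.262% of S. alterniflora salt libraries A, B and C, where it ranked 127, 43 and 47 by FPKM, and 0.0031% or less of the controls. Without it the other 24 genes summed to 386.3 to 448.1 FPKM in S. alterniflora controls and to 1604 to 2181 FPKM under salt. By the rule each gene was higher under salt, so higher cordgrass sums, with or without the leading gene, follow from the choice. In a leaf sample, a change in RNA per cell and a change in the share of a cell type cannot be told apart.

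The genes whose levels over the 12 libraries were most like those of Sevir.4G111600 were Sevir.3G330700 (Pearson's r = 0.922) and Sevir.9G252600 (r = 0.911), on log2 of FPKM + 1. These values describe 12 libraries that fall into 4 groups and carry no test. Sevir.3G330700, which is not among the 25 genes, had S. alterniflora control levels of 3.78, 5.99 and 4.13 FPKM and salt levels of 15.78, 13.99 and 10.94 FPKM. In S. viridis it had control levels of 8.25, 7.39 and 8.66 FPKM and salt levels of 6.68, 5.49 and 9.81 FPKM. Its order of groups was that of the leading gene, over a far smaller range.

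By the chromosome number that the IDs carry, 6 of the 25 genes had number 5, 5 genes each had 3 and 9, 3 genes had 7, 2 genes each had 4 and 6, and 1 gene each had 2 and 8. None carried the number 1, which 12.5% of all IDs carry. The numbers 3, 5 and 9 are carried by 12.6%, 15% and 18.6% of all IDs. With only 25 genes nothing is read from these counts. The nearest of the 25 in the order of the table were Sevir.9G252600 and Sevir.9G253700, 3 rows apart. The latter had S. alterniflora control levels of 1.8, 3.32 and 1.16 FPKM and salt levels of 8.3, 11 and 12.95 FPKM, and was named for its place in the table. In S. viridis it had control levels of 2.36, 0.99 and 3.63 FPKM and salt levels of 1.31, 0.84 and 1.64 FPKM. Its S. viridis ratio of 0.68, with 1 FPKM added, was the one just inside the limit of 0.67. No other neighbours among the 25 were closer than 27 rows.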

How the data were processed

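Leaf RNA (PureLink extraction) was read on an Illumina platform in paired-end mode at 150 bp, per the labels' protocols. The authors deposited 1 table of FPKM values of 15218 IDs in 12 columns, per the file headers. The submitters' processing notes name RSEM and edgeR and give no role or version. The reference, build and filters used are not stated in the sources used here. Columns were assigned to groups by species prefix and treatment, with 0 columns left over.

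No count model was run on FPKM. The tests used limma 3.58.1 (R 4.3.3, eBayes with trend) on log2(FPKM + 1), for genes whose mean over the libraries of a fit reached 1 FPKM, and were checked on simulated data. The salt comparisons and the species comparisons each used 6 libraries, the difference of salt effects all 12. Python 3.11.15, pandas 2.3.3 and matplotlib 3.10.9 served for the rest.

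The genes and lists were chosen with earlier results of these data known. Without names, the rule for named genes took the 2 highest and 2 lowest per comparison (for S. alterniflora salt the highest only, for the difference of effects the lowest only). The reading of left-out library pairs was added after seeing the data. The alternatives changed the pseudocount, filter, scaling, limits of the rule, limma trend, pooling of libraries and column letter as a block, and left out each library.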

Additional observations from a re-analysis of the deposited data

Results flagged for a closer look

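The salt effect differed between the species by limma's interaction test over 12 libraries (adjusted p under 0.05) for 24 of the 25 genes. In each of them the effect was lower in S. viridis, a direction in which 13.4% of 12529 genes tested were called. Both effects entered the choice of the genes, so these values are a description. The S. viridis minus S. alterniflora difference (log2) was -8.73 for Sevir.4G111600, -3.52 for Sevir.9G252600 and -3.32 for Sevir.7G129800. It was -1.91 for Sevir.5G096600, -1.83 for Sevir.5G352700, -1.77 for Sevir.3G011600, -1.75 for Sevir.4G091500, -1.69 for Sevir.2G348300 and -1.38 for Sevir.6G188800. No group had more than 3 libraries, so no single library was tested as an outlier.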

How the results depend on the processing

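The number of genes chosen depended on the limits. It was 46 with a pseudocount of 0.1, 22 of them among the 25, and 74, 8 and 4 with an S. alterniflora fold of 1.5, 3 and 4. It was 12 with the S. viridis ratio narrowed to between 0.8 and its inverse and 22 to 54 with 1 library left out. The highest counts came without an S. alterniflora library: 54 without salt A, 53 without control B and 45 without salt B or control C. All 25 genes were kept there, since this only loosens the rule. Without an S. viridis library some of the 25 were lost. Of them, 18 remained without salt A or control C, 21 without salt B and 22 without salt C. Without control A 24 remained, and without control B 23. Of the 25, 16 were also among the 18 chosen after upper quartile scaling.

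The count called for S. alterniflora salt was 8 with no filter and 0 to 11 with 1 library left out. With the column letter as a replicate block it was 7. Over all genes, 162 were called higher in the main fit. With no filter that number was 62, with the block 94, and with 1 library left out 0 to 133. Libraries with the same letter did not deviate together within a species (correlations of -0.025 to 0.048 over genes), and letters are not the replicate numbers of the labels, so they were not taken as pairs. For S. viridis salt the count was 1 with no filter (Sevir.7G048200, higher) and 0 to 1 with 1 library left out. The 1 without salt library C was Sevir.4G111600, lower. Over all genes 5907 were called with no filter and 3907 to 7033 with 1 library left out, against 5913 in the main fit. The count was 15 to 23 for the difference of effects, 16 to 19 between controls and 16 to 18 between salt groups with 1 library left out. Over all genes the counts were 1966 to 3917, 7777 to 9162 and 6521 to 7610, against 3029, 8768 and 7685 in the main fits. Among values of the named genes, 198 moved by less than the spread between libraries, 4 by more, and none of the called ones changed sign. The depth of the libraries is unknown, so no limit from depth could be set. The cause of these changes was not tested. Fits that leave a library out also have fewer libraries, and the 2 cannot be told apart.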
